A study of Mus musculus with 12 samples.

Results

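The baseline transcriptome of lower motor neurons was described in wild type mice. The members are the 4 libraries whose genotype label is +/+, out of 12 in the series, and no measured value was used to choose them. The mice were 5 months old on a C57BL/6 background, and the cells were lumbar motor neurons cut from tissue by laser. The other 8 libraries, from mice heterozygous or homozygous for a TDP-43 knock-in allele, were not compared here. RNA of the captured cells was converted to full-length cDNA with SMART-seq v4, amplified by PCR and cut by Nextera transposition, which keeps no record of strand and no molecular identifiers. The labels number the libraries but do not say whether each came from its own mouse, so the spread given below may be biological, technical or a mixture of these.

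Lower motor neurons are the cholinergic cells of the ventral horn whose axons leave the spinal cord and drive skeletal muscle. They make acetylcholine from choline with choline acetyltransferase, refill their terminals through a high-affinity choline transporter, and fill very long, thick axons with neurofilaments. Their firing is set by voltage-gated channels, by fast glutamate, glycine and GABA inputs, and by descending transmitters such as serotonin and noradrenaline.

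Levels are given as CPM (counts of a gene scaled by library total). Long transcripts gather more fragments than short ones, so genes within a list were ordered by CPM per kb of exon. Ranks by CPM over all entries show the share of counts a gene took and are not corrected for length. A value written as mean ± SD is over the 4 libraries (n = 4), and values in a row are replicates 1 to 4 in order. A gene was called detected when it reached at least 1 CPM in all 4 libraries. A level of 1 CPM was worth 62.7 to 84.3 counts. Because the fragments were amplified and carry no molecular identifiers, counts are not independent molecules, and counting errors below cover counting alone.

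The libraries held 62908120 to 83504446 counts over 25965 gene entries. Of these entries 12406, or 47.8%, were detected, 18772 had at least 1 count somewhere, and 7193 had none in any library. The 47.8% is the share to set beside every list count below, and a count near it says little about its list. Each library had 16633 to 17002 entries with a count. Replicate 1 stood apart from the others among 9168 detected entries with a mean of 10 CPM or more. Its root mean square log2 difference from another library was 0.478 to 0.526, against 0.320 to 0.373 between the remaining pairs. It was the farthest library from the mean for 42.4% of those entries. Where leaving out this or another library moved the mean of a named gene by more than 1.5-fold, the mean without it is given beside the values. No sample label explains the difference, and its cause was not tested. Xist had no count in any library, while Ddx3y of the Y chromosome was present in all 4 (41.5, 38.5, 32.7 and 43.9 CPM).

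The labelled cell type was checked first against 6 markers, and all 6 were detected. Nefh, the heavy neurofilament subunit, read 5618, 4708, 3932 and 3527 CPM. Prph, the peripherin of peripherally projecting axons, read 1140, 528, 374 and 354 CPM. Slc5a7, the choline transporter, read 354, 237, 72.1 and 90.6 CPM. Chat, which makes acetylcholine, read 243, 128, 88.5 and 63.4 CPM. These 4 genes were highest in replicate 1 and lower in replicates 3 and 4 than in replicate 2. The homeobox factors Mnx1, which read 41.1, 20.2, 8.80 and 14.3 CPM, and Isl1, which read 46.6, 4.20, 20.9 and 10.9 CPM, were also highest in replicate 1, and Isl1 averaged 12.1 CPM without it. All 6 markers therefore had their highest value in the same library, and their sum read 7442, 5625, 4496 and 4060 CPM. By abundance Nefh ranked 5, Prph 211, Slc5a7 1072, Chat 1646, Mnx1 7031 and Isl1 7106 among all entries.

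On the per-length scale the marker order was Nefh at 1113 ± 231 CPM per kb, Prph at 299.6 ± 185, Slc5a7 at 33.4 ± 23.5, Chat at 27.8 ± 16.9, Mnx1 at 9.37 ± 6.28 and Isl1 at 5.22 ± 4.70. Nefh lay above Prph in every library with ranges that did not overlap. The ranges of Slc5a7 and Chat overlapped, as did those of Mnx1 and Isl1, so neither pair can be ordered beyond its spread. In GRCm38 the entries lie at chr11:4938754-4948064 for Nefh, chr15:99055174-99058978 for Prph, chr17:54273594-54299034 for Slc5a7, chr14:32408203-32465909 for Chat, chr5:29473038-29478519 for Mnx1 and chr13:116298281-116309688 for Isl1.

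The promoters of 5 of the 6 markers were found in the RefSeq table for GRCm38.p6, and the 250 bases before the start site were searched on both strands for TATAAA, a core of the TATA box, and TAATTA, a homeodomain core. Those of Prph and Slc5a7 held TATAAA, those of Chat, Mnx1 and Isl1 held neither, and none of the 5 held TAATTA. Those with a match are printed 5′ to 3′ on the gene's strand with TATAAA in capitals. The plus-strand window of Prph is chr15:99054924-99055173 and the minus-strand window of Slc5a7 is chr17:54299035-54299284.
Prph: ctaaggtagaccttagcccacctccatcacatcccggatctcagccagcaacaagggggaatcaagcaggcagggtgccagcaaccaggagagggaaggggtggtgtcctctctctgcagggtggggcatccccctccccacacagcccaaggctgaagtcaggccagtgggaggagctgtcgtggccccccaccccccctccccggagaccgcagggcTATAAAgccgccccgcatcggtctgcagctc
Slc5a7: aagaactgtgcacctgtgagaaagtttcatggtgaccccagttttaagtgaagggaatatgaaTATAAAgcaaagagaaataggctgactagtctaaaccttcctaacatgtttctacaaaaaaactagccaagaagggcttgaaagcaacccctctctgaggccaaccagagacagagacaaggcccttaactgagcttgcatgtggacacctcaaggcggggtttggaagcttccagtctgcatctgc
The match begins 31 bases before the start of Prph and 187 bases before that of Slc5a7. Of 32851 promoter windows of the same length, 12.4% held TATAAA and 4.84% held TAATTA. A match is a run of letters, not a measured site.

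Markers of other cells were read in the same way, from 11 lists. These held 80 entries, of which 43 were detected (53.75%, against 47.8% of all entries). All 10 oligodendrocyte markers were detected, and their sum was 960, 1258, 2846 and 1686 CPM. Of the myelin genes, Mbp read 459, 497, 1441 and 648 CPM and Mobp read 103, 139, 464 and 199 CPM, or 146 on average without replicate 3. Replicate 3 was highest for both genes and replicate 1 was lowest. Of 10 astrocyte markers 9 were detected, 8 of them highest in replicate 3, with sums of 1778, 1625, 2147 and 1891 CPM that were mostly Aldoc (1076 ± 168) and S100b (632 ± 56.4). The defining astrocyte gene Gfap read 23.5, 15.8, 78.9 and 27.4 CPM, or 22.1 on average without replicate 3. Per kb of exon S100b was at 426 and Aldoc at 330 CPM, against 8.62 for Gfap, the next in the list. Whether the reads of S100b and Aldoc came from astrocytes or from other cells was not tested, so the sum is no measure of astrocyte RNA. A larger number of captured glial cells and more RNA per glial cell cannot be told apart in such bulk samples.

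Inhibitory interneuron markers were at 7 of 9 detected, and their sum, 227, 315, 530 and 595 CPM, ran in the opposite order to that of the motor neuron markers. Slc6a5, the neuronal glycine transporter, read 124, 129.9, 267 and 293 CPM, and the vesicular transporter gene Slc32a1 read 34.5, 59.97, 89.4 and 100.4 CPM. Replicate 1 was the lowest library for both and replicate 4 the highest. Slc17a6, the vesicular glutamate transporter of excitatory spinal neurons, was at 269 ± 41.1 CPM, and 2 of the 7 genes of its list were detected. The sum of that list read 243, 328, 298 and 267 CPM, with replicate 1 lowest. Of the vascular and immune lists, 4 of 10 microglial markers were detected (sums 54.3 to 98.4 CPM), 5 of 10 endothelial (19.96 to 46.7) and 1 of 7 mural (3.6 to 20.4). The microglial share of 40% and the endothelial share of 50% lay near the 47.8% of all entries. No oligodendrocyte precursor marker of 4 was detected, 2 of 5 ependymal and 1 of 5 Schwann cell markers were, the red blood cell genes Hba-a1 and Hba-a2 were detected out of 3, and Pdgfrb, Pmp2, Tmem212, 1700027A23Rik and Ccdc153 had no count. The part of these cells in any gene level below was not tested.

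**Figure D1:**
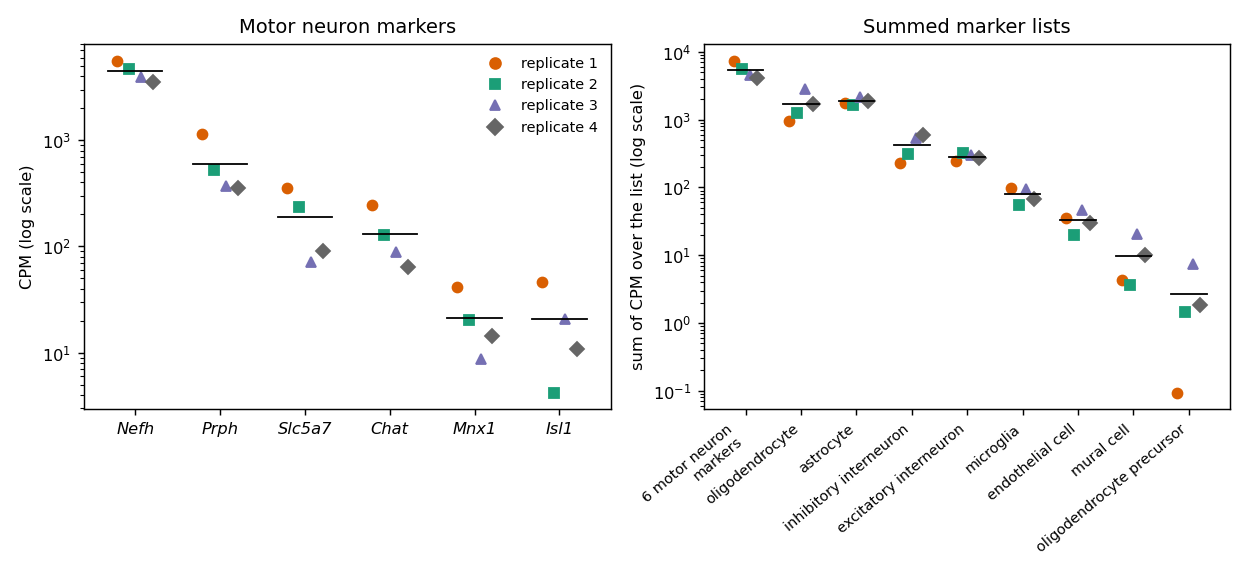
Left, CPM of the 6 motor neuron markers on a log axis; right, summed CPM of the motor neuron list and 8 lists of other cells. Each symbol is a library and each bar the mean of 4. Replicate 1 is highest for all 6 motor neuron markers (sum 7442 CPM) and lowest for the inhibitory interneuron list (227 CPM).

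The entries with the most counts included genes of axonal structure, synaptic release and energy supply. Nefm, the medium neurofilament subunit, ranked 1 and read 14548, 12970, 9052 and 8770 CPM. Snap25, a membrane protein of vesicle fusion, ranked 2 at 8710 ± 1087 CPM and Nefl, the light neurofilament subunit, ranked 3 at 8518 ± 1913. Replicates 1 and 2 were above replicates 3 and 4 for Nefm and Nefl, whereas Snap25 was lowest in replicate 1. Ckb, the brain creatine kinase, followed at 5580 ± 689 CPM and Nefh at 4446 ± 922. The entries of Nefm and Nefl overlap on opposite strands at chr14:68082590-68124846 and chr14:68083863-68089095, so reads in shared exons could not be assigned by strand.

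Also among the 20 highest entries were Hspa8 (4346 ± 348 CPM), the constitutive heat shock cognate, Mtap1b (4330 ± 957), the microtubule-associated protein now named Map1b, and Pkm (4187 ± 237), pyruvate kinase. Further ones were Ndrg4, Calm2, Mdh1, Aldoa, Ubb, Atp5b, Tecr, Gnas, Gm20721 and Zwint, the last at 2708 ± 109 CPM. Calm2 encodes calmodulin, the calcium sensor, and Mdh1 and Aldoa belong to malate and glucose metabolism. Gm20721 overlaps Gnas on the opposite strand and read nearly the same counts (2835 ± 104 against 2909 ± 102 CPM), so it is uncertain as a transcript of its own. Together the 20 entries held 9.14% of the scaled total.

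Per kb of exon the order was different, and 10 of the 20 highest were shared with the order by CPM. Nefl led at 2520 ± 566 CPM per kb, followed by Calm2 at 2402 ± 127, Stmn3, a tubulin-binding stathmin, at 2348 ± 169, the predicted gene Gm10123 at 2180 ± 208, and Nefm at 1960 ± 497. The ranges of Nefl and Nefm overlapped, and with the longest transcript as length Nefm (3080 CPM per kb) was above Nefl (2520). Ckb, Ubb, Gm20721, mt-Nd1, mt-Cytb, Ldhb, Tecr, mt-Co1, Mdh1, Snurf, Spp1, Snap25, Tuba1a, Aldoa and Uchl1 completed the 20. The short Snurf entry overlaps Snrpn on the same strand, and its value cannot be separated from that gene. Spp1, the secreted protein osteopontin, known as a marker of alpha motor neurons, read 1927, 2757, 1899 and 1974 CPM and reached 1298 ± 250.4 CPM per kb. Tuba1a, an alpha tubulin, read 3116, 2014, 1824 and 1672 CPM, with replicate 1 well above the others. Uchl1, the neuronal ubiquitin hydrolase, was steadier at 1922 ± 102 CPM.

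**Figure D2:**
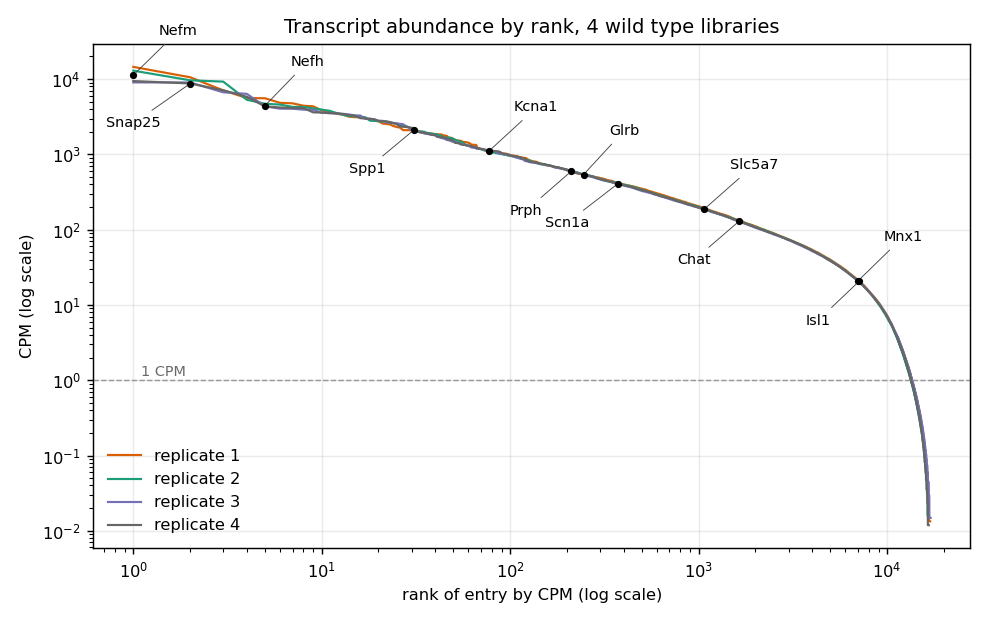
CPM of every entry against its rank in each of the 4 libraries, on log axes; each line is a library and each dot the mean of a named gene at its mean rank. The 4 lines differ at the first ranks and nearly coincide beyond them, and Nefm at 11335 CPM and Isl1 at 20.7 CPM mark the span of the named genes.

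The counts were spread over many genes. The 10 most abundant entries of a library held 5.97 ± 0.453% of its counts (6.43, 6.29, 5.59 and 5.57%), the top 100 held 21.1 ± 0.292%, and the top 1000 held 54.7 ± 0.222%. Replicates 1 and 2 were above replicates 3 and 4 at the top of the range, and without replicate 1 the mean share of the top 10 was 5.82%. By level, 95 entries had a mean of at least 1000 CPM and 20.5% of all counts, 2082 lay from 100 to 1000 CPM with 50.4%, and 7001 lay from 10 to 100 CPM with 27.0%. These shares by level are of unscaled counts pooled over the 4 libraries.

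By function, the nuclear-encoded respiratory chain took 3.96% of the scaled total, with 81 of 87 entries detected. Its highest members per kb were Atp5o (1160 ± 71.6 CPM per kb), Cox6b1 (1153 ± 151) and Cox4i1 (1049 ± 78.6), and with the longest transcript as length Cox4i1 (2125) was above Atp5o. Replicate 1 was the lowest library for 71 of these 81 genes, and for 65 of the 83 detected cytosolic ribosomal protein genes (of 89), which took 0.970%. Synaptic vesicle and release genes (42 of 54 detected) took 2.50%, led by Snap25, the complexin gene Cplx1 (906 ± 81.0 CPM per kb) and the synuclein gene Sncg (905 ± 205). Glycolysis took 1.95% (16 of 18), chaperones 1.89% (73 of 82), microtubule-associated proteins 1.27% (21 of 21), tubulins 1.19% (14 of 17), calmodulins and calcium buffers 1.14% (14 of 23), kinesins and dyneins 0.954% (42 of 64) and ion pumps 0.830% (18 of 29). Replicate 1 was highest for 11 of the 14 detected tubulin genes, with Tubb3, the neuronal beta tubulin, at 2100, 1612, 1488 and 1395 CPM.

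Neurofilament genes made up most of the neuronal intermediate filament list, whose 5 members were all detected. Nefl held 41.1 ± 1.4% of the list per kb, Nefm 31.8 ± 1.1%, Nefh 18.2 ± 1.0% and Prph 4.63 ± 1.8%. The shares of the 3 neurofilament subunits moved by a few points between libraries although their summed level was higher in replicates 1 and 2. The share of Prph was 7.30% in replicate 1 and 3.57 to 3.90% in the others. The fifth member, Ina, ran the other way, from 589 CPM in replicate 1 to 907 in replicate 3.

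Of the cholinergic list 6 of 7 entries were detected, Ache, Slc5a7, Chat, Slc44a1, Colq and Prima1. The remaining entry had counts but did not reach 1 CPM in all 4 libraries. Ache, the acetylcholinesterase gene, read 968, 628, 602 and 592 CPM. Slc44a1, a choline transporter-like gene, read 57.9, 63.5, 63.8 and 60.1 CPM. Ache was again highest in replicate 1, and Slc44a1 differed little between libraries. Of 20 genes used in the field to mark motor neuron subtypes, 17 were detected. The highest per kb after Spp1 were Pvalb, a calcium buffer, at 367 ± 95.6 CPM per kb, and the calcitonin gene-related peptide genes Calcb at 175 ± 80.9 and Calca at 109 ± 83.7. Calca read 199, 372, 40.6 and 125 CPM and averaged 121 CPM without replicate 2.

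Peptide precursors were detected for 17 of 28 genes, and Trh had no count. Chga, the granin chromogranin A, was at 1041, 1168, 1239 and 1184 CPM, or 420.2 ± 30.3 CPM per kb. Uts2, a urotensin precursor known from spinal motor neurons, read 301, 157, 51.4 and 45.0 CPM and averaged 85.1 CPM without replicate 1. Its entry overlaps Camta1 on the opposite strand. Scg2, another granin, read 652, 272, 323 and 273 CPM. Chga thus stayed within a narrow range while Uts2 and Scg2 were highest in replicate 1.

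Of 245 ion channel genes, 138 were detected (56.3%, against 47.8% of all entries) and 41 had no count. Their summed level was 1.02% of the scaled total and differed little between libraries, 10182 ± 125 CPM. Single channel genes were less steady than this sum. Of those detected 21, or 15.2%, had an SD above 50% of the mean, against 5.46% of all detected entries. The median detected channel gene was at 28.5 CPM, against 27.0 CPM for all detected entries. Without replicate 1 the number detected was 142, and leaving out another library gave 139 to 140. Such counts can only rise or stay alike at a given scaling, because fewer libraries then have to reach 1 CPM.

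Among potassium channels, Kcna1, a delayed rectifier subunit placed beside nodes of Ranvier, had the highest level per kb of any channel gene, 231 ± 9.84 CPM per kb. It read 1034, 1127, 1135 and 1119 CPM and held 56.8 ± 1.6% of the list of 17 shaker, shab, shaw and shal genes, of which 12 were detected. The ranges of Kcnc1 and Kcna2 (13.5 ± 1.84 CPM per kb) overlapped. Kcng4, a silent subunit that alters other potassium channels, was at 94.2 ± 27.2 CPM per kb and led 4 detected genes of 10 in its list.

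The inward rectifier Kcnj14 read 199.5, 138, 94.99 and 117 CPM, the highest of 9 detected genes of 15 at 50.6 ± 16.5 CPM per kb. Kcnj13, Kcnj5, Kcnj1, Kcnj4 and Kcnj15 had no count. Among the tandem-pore leak channels 7 of 14 were detected, led by Kcnk1 at 85.5 ± 13.4 CPM per kb and Kcnk12 at 21.6 ± 3.77. Kcnk3, which sets resting conductance, read 109, 41.1, 47.3 and 43.8 CPM, more than 2-fold higher in replicate 1 than in any other library. Of the KCNQ genes 2 of 5 were detected. The sodium-activated channel gene Kcnt1 was at 8.20 ± 1.41 CPM per kb in a list of which 9 of 12 were detected. It was above the next gene, Kcnmb4, in 3 of 4 libraries, with overlapping ranges, and below it with the longest transcript as length (11.7 against 12.1 CPM per kb). The ERG channel gene Kcnh2 was the highest of 4 detected of 8, at 13.99 ± 2.69. Of 13 accessory genes 8 were detected, led by the cytoplasmic beta subunits, with Kcnab2 at 92.8 ± 5.19 CPM per kb, Kcnab3 at 50.6 ± 14.6 and Kcnab1 at 38.2 ± 4.12.

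Sodium channel pores were led by Scn1a and Scn8a. Scn1a read 367, 440.1, 396 and 426 CPM and held 55.6 ± 4.4% of the list of 11 per kb, and Scn8a, the main pore of mature nodes, read 346, 383, 391 and 369 CPM and held 35.9 ± 2.2%. The per-kb ranges of these did not overlap. Scn9a, best known from sensory neurons, read 117, 18.97, 30.7 and 23.5 CPM and averaged 24.6 CPM without replicate 1. Its entry overlaps the antisense entry Gm13629, which could not be separated without strand. Of the beta subunit genes 3 of 4 were detected, and Scn4b, at 136 ± 17.2 CPM per kb, was above every pore gene. Scn4b read 562, 720.1, 671 and 759.9 CPM. All 4 genes of the sodium leak complex were detected, with Unc80 at 6.61 ± 0.811 CPM per kb and the pore Nalcn at 2.94 ± 0.269.

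Of the calcium channel pore genes 7 of 10 were detected, summing to 72.5 to 80.6 CPM. Cacna1a, the P/Q-type pore that triggers release at the neuromuscular junction, read 25.7, 26.0, 36.8 and 33.8 CPM and held 40.4 ± 7.6% of the list per kb. Cacna1b and Cacna1d held 14.5 ± 1.9% and 14.3 ± 5.3%, and their ranges overlapped. The entry of Cacna1d overlaps Dcp1a on the opposite strand. The accessory genes Cacna2d3, at 19.6 ± 1.24 CPM per kb, and Cacng2, at 17.7 ± 1.27, were each above every pore gene per kb, and 11 of 16 accessory genes were detected. All 4 genes of the hyperpolarization-activated HCN family were detected. Hcn2 held 82.5 ± 6.9% per kb at 79.3, 80.7, 131 and 120.3 CPM, lowest in replicate 1.

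Other channels included Mcoln1, the lysosomal mucolipin, at 200.5 ± 8.05 CPM, the highest per kb of 12 detected TRP genes of 26, and Clcn4-2, an endosomal chloride exchanger, at 254 ± 33.1 CPM, the highest per kb of 19 detected chloride channel genes of 31. Trpv2 read 107, 45.1, 37.0 and 30.0 CPM, again highest in replicate 1. Of 23 gap junction and pannexin genes 9 were detected. Their highest members per kb were Panx2 (10.2 ± 1.99), Panx1 (9.52 ± 1.63) and the neuronal connexin Gjd2 (9.19 ± 0.927), whose entry overlaps A530058N18Rik on the opposite strand. Of the acid-sensing and mechanosensitive genes 4 of 10 were detected, Tmem63b, Accn1, Tmem63c and Accn2, and of the intracellular calcium release channels 5 of 6, Ryr2, Ryr3, Itpr3, Itpr1 and Itpr2. No cyclic nucleotide-gated channel gene of 6 was detected, and Cnga1, Cnga2, Cnga3 and Cngb1 had no count.

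**Figure D3:**
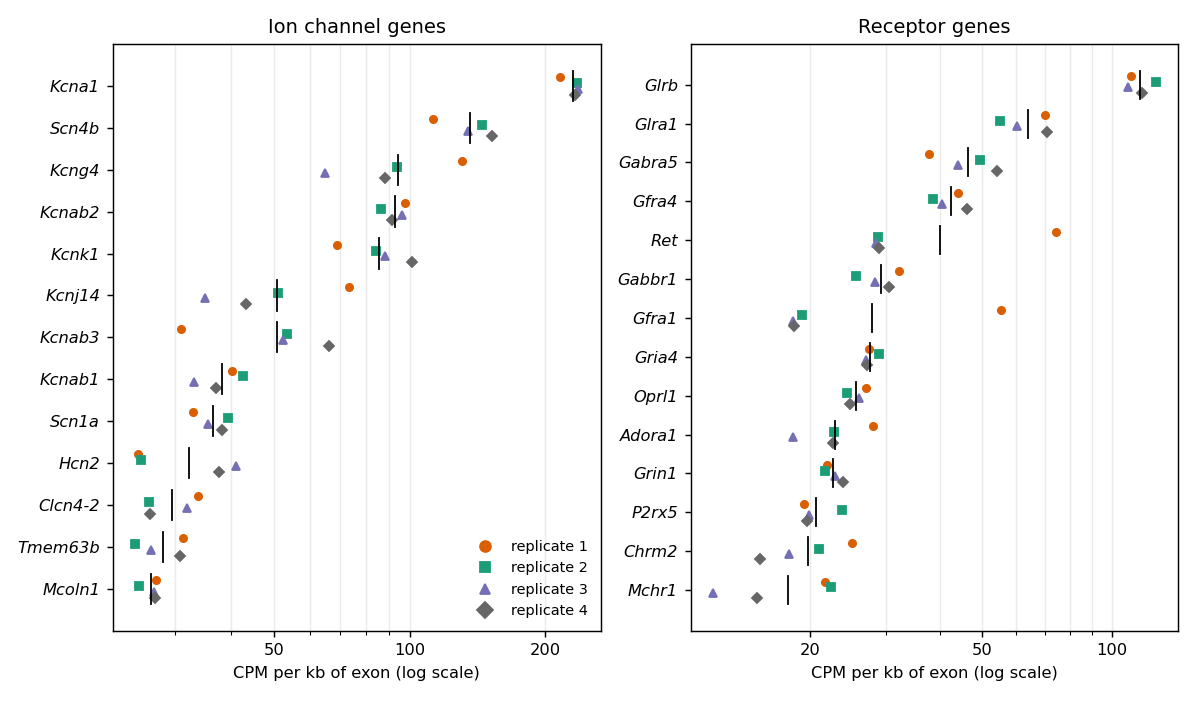
CPM per kb of exon, on log axes, of 13 ion channel genes (left) and 14 receptor genes (right) named in the text, all among the 15 of their class with the highest mean. Each symbol is a library and each bar the mean of 4. Kcna1 at 231 and Glrb at 116 CPM per kb lead, and Ret and Gfra1 are the receptor genes in which replicate 1 lies far from the other libraries.

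Of 267 receptor genes, 139 were detected (52.1%, against 47.8% of all entries), 31 had no count, and the sum was 0.584% of the scaled total. Without replicate 1 the number detected was 143, and leaving out another library gave 140 to 146. Inhibitory receptors had the highest levels. Glrb, the glycine receptor beta subunit that binds gephyrin, read 516, 590.2, 509 and 546 CPM (116 ± 7.95 CPM per kb), and Glra1, the adult alpha subunit, read 169, 133, 145 and 171 CPM (64.0 ± 7.62 CPM per kb). These were the detected members of a list of 5 and did not overlap in range. Among GABA-A subunits 9 of 19 were detected (47.4%, against 47.8% of all entries). They were led by Gabra5, an extrasynaptic alpha subunit, at 46.4 ± 7.07 CPM per kb and 40.3 ± 5.5% of the list. Gabra6 and Gabrp had no count. Gabbr1 of the metabotropic GABA-B receptor was at 29.1 ± 2.81 CPM per kb and its partner Gabbr2 at 10.8 ± 1.34.

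All 4 AMPA receptor genes were detected. Gria4 read 173, 182, 169 and 171 CPM and held 52.8 ± 1.7% of the list per kb. Gria3 and Gria2 held 22.7 ± 3.5% and 18.8 ± 1.4% and overlapped in range, and Gria1 held 5.76 ± 2.3%. Gria2, whose product limits calcium entry, read 156, 146, 153 and 152 CPM, with little spread. Of the NMDA receptor genes 6 of 7 were detected: Grin1, the obligatory subunit, was at 22.5 ± 1.00 CPM per kb, Grin3b, known from motor neurons, at 11.9 ± 3.90, and Grin3a at 3.41 ± 1.09. Grin3b read 56.6, 41.0, 27.0 and 32.7 CPM, and its entry overlaps ORF61 on the opposite strand. Grin1 overlaps E130003G02Rik in the same way. Metabotropic glutamate receptors were led by Grm4 (7.40 ± 2.15 CPM per kb), with 6 of 8 detected. The kainate genes Grik5, Grik4, Grik2 and Grik3 were detected out of 5, and the delta receptor gene Grid1 was detected.

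In several modulatory families the leading member held most of the level per kb. Chrm2, the inhibitory muscarinic receptor found at cholinergic C boutons, read 152, 127, 108 and 92.5 CPM and held 98.5 ± 0.82% of the muscarinic list per kb, where Chrm1 and Chrm5 had no count. Oprl1, the nociceptin receptor, read 101, 91.4, 97.2 and 92.9 CPM and held 92.8 ± 2.7% of the opioid list. Adora1, the inhibitory adenosine receptor, held 90.7 ± 4.4% of its list at 132 ± 23.1 CPM. Htr7 was the highest serotonin receptor gene, 56.6 ± 6.3% of the list at 60.1, 58.2, 49.4 and 66.2 CPM, followed per kb by Htr3a, Htr2a and Htr2c. Among adrenergic receptors 6 of 9 were detected, led per kb by Adra2c (5.86 ± 0.685) and Adra1b (3.87 ± 0.533). Nicotinic receptors were at 3 of 16 detected, Chrna4, Chrnb2 and Chrna7, and the muscle subunit genes Chrnd, Chrng and Chrne had no count. The dopamine, histamine and cannabinoid lists had 1 detected gene each, Drd2 of 5, Hrh3 of 4 and Cnr1 of 2.

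Of the ATP-gated P2X receptors, P2rx5 held 46.8 ± 2.9% and P2rx6 39.96 ± 2.6% of the list per kb, with 3 of 7 detected, and with the longest transcript as length P2rx6 (20.8 CPM per kb) was above P2rx5 (20.6). P2rx6 overlaps Slc7a4 on the opposite strand. None of 8 P2Y receptor genes was detected. Among 51 neuropeptide receptor genes 17 were detected. Mchr1, the melanin-concentrating hormone receptor, read 47.5, 48.9, 26.0 and 32.9 CPM, and Adcyap1r1 was at 91.4 ± 17.4 CPM. Per kb Mchr1 (17.7) was above Adcyap1r1 (13.8) in 3 of 4 libraries, and their ranges overlapped.

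Receptors for trophic factors carry survival signals from muscle and glia. Ret, the kinase shared by the GDNF family, read 502, 194, 192 and 195 CPM, and its co-receptor gene Gfra1 read 303, 105, 99.99 and 100.4 CPM. Replicate 1 was far above the other libraries for these genes, which lay close together. Gfra4, the co-receptor that binds persephin, read 95.02, 83.5, 87.5 and 100.04 CPM with no such step and led the list per kb at 42.3 ± 3.43. Cntfr, the ciliary neurotrophic factor receptor, was at 40.4 ± 5.41 CPM. In all 14 of 18 genes were detected, and Gfral and Gfra3 had no count. The sum over the list read 1615, 887, 819 and 831 CPM. Of the growth factor receptors 21 of 33 were detected, with Flt3 highest at 14.2 ± 1.14 CPM per kb, and of the axon guidance receptors 25 of 35, with Unc5a at 14.2 ± 1.63 and Ephb6 at 13.3 ± 3.29.

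Of 1038 genes in the transcription factor lists, 620 were detected (59.7%, against 47.8% of all entries) and 127 had no count. The lists were made from patterns of gene symbols and also hold cofactors. Their members are called factors here, though not every one is a transcription factor. The median detected factor was at 11.2 CPM, below the 27.0 CPM of all detected entries, and the sum was 1.30% of the scaled total, 12983 ± 146 CPM. At a level of 5 CPM in place of 1 CPM, 412 factors were counted. Without replicate 1 the number was 635, and leaving out another library gave 630 to 644.

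Members of the transcription factor lists were ordered per kb. Creb3, an endoplasmic reticulum-bound factor, led at 166, 173, 162 and 159 CPM (69.6 ± 2.70 CPM per kb), and its entry overlaps Gba2 on the opposite strand. Atf4 of the integrated stress response read 122, 136, 129.8 and 133 CPM (55.2 ± 2.55 CPM per kb). Jund was at 46.8 ± 6.41 CPM per kb, Nfe2l1, which controls proteasome genes, at 42.2 ± 6.08, and Xbp1 of the unfolded protein response at 37.6 ± 1.36. The other places among the 15 highest went to Zfp706, Zmat2, Hopx, Hoxc8, Zfp385a, Zfp771, Hoxa7, Zfp637, Pura and Nfic. These ran from 42.0 ± 4.51 CPM per kb for Zfp706 to 26.6 ± 1.12 for Nfic. With the longest transcript as length Zfp637 (54.5) was above Zfp706 (47.4). By that length E2f6 (35.3), not among the 15, was above Pura (27.3). The entries of Jund and Hopx overlap Gm11175 and Gm15830 on the opposite strand.

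The LIM homeodomain list, with its cofactors, had 12 of 18 genes detected, and Lhx6, Lhx8, Lhx9 and Lmx1a had no count. Lmo1, a LIM-only partner, read 38.0, 43.2, 33.8 and 40.4 CPM and was the highest per kb, at 25.04. Isl2, a factor of somatic motor neurons, read 46.2, 24.5, 17.7 and 17.8 CPM, highest in replicate 1 as Isl1 and Mnx1 were. Ldb1, the bridging cofactor, was steady at 45.9 ± 2.49 CPM. Among 27 other genes with roles in motor neuron development 20 were detected, led by Olig1 at 20.8 ± 7.89 CPM per kb and by Meis3, a Hox cofactor, at 12.97 ± 1.59, an order that turned with the longest transcript as length (20.8 against 21.4). Olig1, which oligodendrocytes also express, read 27.9, 39.1, 68.4 and 44.9 CPM and was highest in replicate 3, the library with the highest oligodendrocyte sum.

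Hox genes record position along the body axis, and 22 of 39 were detected (56.4%, against 47.8% of all entries). Hoxc8 and Hoxa7 were highest per kb, at 31.1 ± 3.71 and 30.2 ± 6.26, followed by Hoxc10 at 24.4 ± 3.00, Hoxa9 at 21.6 ± 4.67 and Hoxa10. Neighbours in this order overlapped in range, and with the longest transcript as length Hoxa7 (42.8) was above Hoxc8 (39.6). Hoxa9 read 88.4, 111, 134 and 148 CPM, and replicate 1 was the lowest library for 13 of the 22 genes. The genes with no count were Hoxb1 and the posterior Hoxa11, Hoxa13, Hoxb13, Hoxc11, Hoxc12, Hoxc13, Hoxd11 and Hoxd12. The detected genes ran from paralogue group 2, Hoxb2, to group 10, Hoxa10, Hoxc10 and Hoxd10, and none lay in groups 11 to 13. Hoxd10 averaged 5.30 CPM without replicate 1. These last names were chosen after their values were seen.

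**Figure D4:**
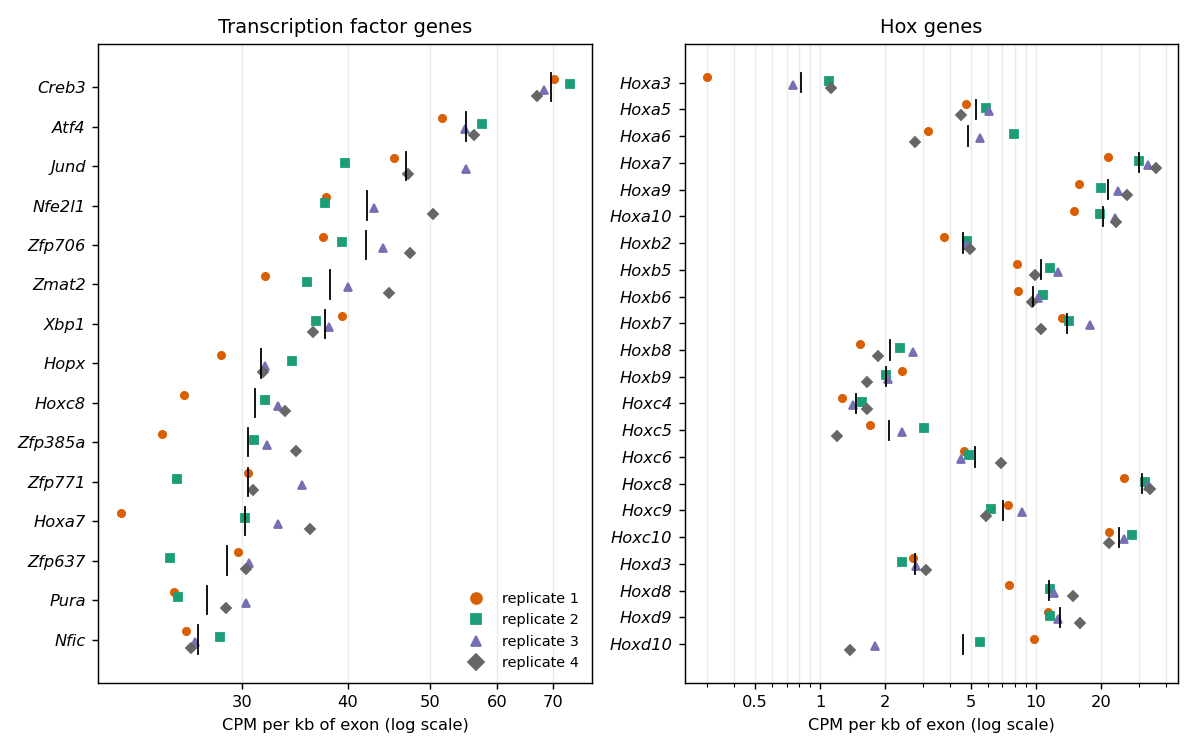
Left, CPM per kb of exon, on a log axis, of the 15 members of the transcription factor lists with the highest mean. Right, the same for the 22 detected Hox genes by cluster and paralogue number. Each symbol is a library and each bar the mean of 4. Creb3 leads at 69.6 CPM per kb, and Hoxc8 and Hoxa7 are the highest Hox genes at 31.1 and 30.2.

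Nuclear receptors had 30 of 43 genes detected, led by Esrra, a regulator of mitochondrial genes, at 18.7 ± 1.76 CPM per kb and the thyroid hormone receptor Thra at 15.9 ± 0.947. Both entries overlap a gene on the opposite strand, Trmt112 and Nr1d1. The bHLH list had 39 of 69 detected with Id2 at 17.1 ± 3.81 CPM per kb. With the longest transcript as length Hey1 (21.7) was above Id2 (21.1). The bZIP list had 32 of 47 detected, the Zfp list 295 of 400, Sox 6 of 19 and forkhead 13 of 43. The list of KLF, SP and EGR factors had 14 of 30 detected, POU 4 of 15 (Pou6f1, Pou3f3, Pou3f2 and Pou2f1), other homeobox genes 24 of 81, other zinc finger genes 61 of 106, and MEF2, SRF and others 56 of 113. The shares of the KLF, SP and EGR list (46.7%) and of MEF2, SRF and others (49.6%) lay near the 47.8% of all entries. In the forkhead list 19 genes and in the remaining homeobox list 28 had no count. Of 15 immediate early genes 8 were detected (53.3%, against 47.8% of all entries), with Fos at 22.7, 29.2, 31.6 and 29.6 CPM. The median of those detected was 12.1 CPM, against 27.0 CPM for all detected entries.

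Spread between libraries was measured by the coefficient of variation (CV), the SD divided by the mean over the 4 libraries. Its median over detected entries was 16.3%, where counting alone would give 2.27%, and 13.2% without replicate 1. The median fell with level, from 36.5% at 1 to 10 CPM to 15.2% at 10 to 100, 8.98% at 100 to 1000 and 7.02% above 1000 CPM. Of the detected entries 677, or 5.46%, had a CV above 50%, and 2479, or 19.98%, differed more than 2-fold between the highest and lowest library. The biological coefficient of variation, the square root of the common dispersion in edgeR, was 0.317 over 14153 entries and 0.288 without replicate 1. The median CV was 23.4% for detected channels, 27.9% for receptors, 22.03% for transcription factors and 64.3% for the 6 motor neuron markers.

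Among genes of at least 100 CPM, Psmd4 was the steadiest. Psmd4, a proteasome subunit, read 349.6, 349.8, 347 and 350.0 CPM, a CV of 0.353%. Sdha of succinate dehydrogenase had 0.922%. Gm12352, Bin1, 1810046J19Rik, Psmb1, Zbtb7a and 1500011B03Rik were also among the 10, the last with 1.38%. Gm12352 and 1810046J19Rik overlap each other on opposite strands.

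The most variable genes of at least 10 CPM were high in replicate 1, except Gm5506. Tagln2, an actin-binding protein, read 51.5, 0.431, 2.10 and 0.0949 CPM, Lgals3, a galectin, 34.0, 0, 2.99 and 4.23, and Lcn2, the secreted lipocalin, 129.9, 1.36, 24.0 and 7.93. Srd5a2, a steroid reductase, read 223, 0, 28.9 and 20.5 CPM, and Gal, the galanin precursor, 31.0, 0.223, 8.82 and 0.166. Without replicate 1 the means were 0.883 CPM for Tagln2, 2.42 for Lgals3, 11.2 for Lcn2, 16.6 for Srd5a2, 3.09 for Gal, 1.49 for Ctla2a, 7.69 for Pde1a, 8.26 for Mpp3 and 4.65 for Tm4sf1. All of these but Lcn2 and Srd5a2 thus lay below the cut of 10 CPM without replicate 1 and were listed only through that library. Gm5506 read 51.0 CPM in replicate 3 and 4.51 to 4.85 in the others, and averaged 4.69 without replicate 3. It was listed only through replicate 3. The library in which these genes were high was therefore partly set by the rule, and the list is no separate evidence about replicate 1.

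Replicate 1 held 320 of the 9168 entries more than 1.5-fold above all other libraries and 210 below, against 28 to 61 above and 61 to 97 below for the others. At 2-fold it held 90, against 1 to 13. Among them, named after their values were seen, were Ecel1, a neuronal endopeptidase, at 614, 64.5, 95.3 and 86.1 CPM, Jun at 123, 36.6, 42.0 and 37.1 CPM, and Ldha at 339, 79.1, 96.8 and 68.3 CPM. Their means without replicate 1 were 82.5 CPM for Ecel1, 38.8 for Jun and 81.97 for Ldha. The genes high in that library thus included motor neuron markers, trophic factor receptors and genes outside those lists. The part of the other cells in this difference was not tested, and the sum of oligodendrocyte markers was lowest in the same library (960 CPM). The sum of the microglial markers was highest there (98.4 CPM, against 54.3, 94.0 and 68.6), and 3 of the 4 detected microglial markers were highest in it.

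**Figure D5:**
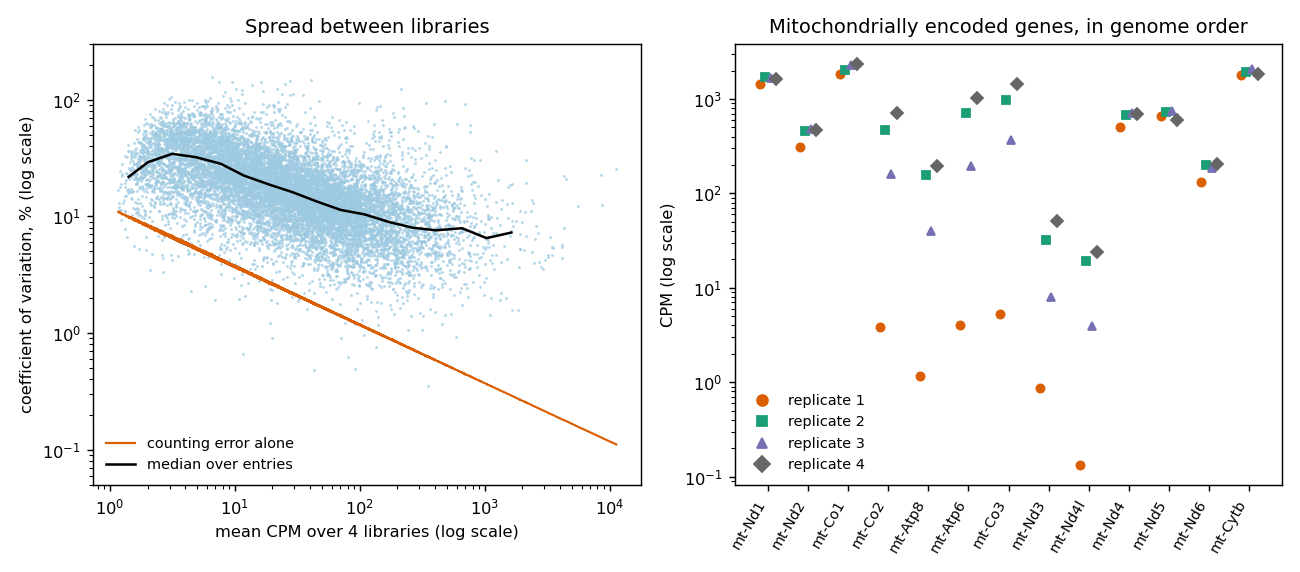
Left, coefficient of variation of every detected entry against its mean CPM, on log axes, with the median in bins of level (black) and the spread that counting alone would give (orange). Right, CPM of the 13 mitochondrially encoded genes in genome order, on a log axis, by library. The median spread lies above counting error at every level, and 6 adjacent mitochondrial genes from mt-Co2 to mt-Nd4l range widely between libraries.

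Mitochondrially encoded genes held 0.923 ± 0.2002% of the counts (0.657 to 1.13%), and 11 of 13 were detected. Of the 13, the 7 genes from mt-Nd1 to mt-Co1 and from mt-Nd4 to mt-Cytb summed to 6694, 7695, 8133 and 7773 CPM. The 6 adjacent genes mt-Co2, mt-Atp8, mt-Atp6, mt-Co3, mt-Nd3 and mt-Nd4l, at chrMT:7013-10173 and set apart after their values were seen, summed to 15.3, 2348, 776 and 3430 CPM. How reads that align to more than 1 place were counted is not given in the sources used here, so these values are read counts and were not shown to be expression levels. Genes of the same respiratory complexes lay in both sets: mt-Co1 read 1845, 2019, 2268 and 2348 CPM, and mt-Co3 read 5.33, 965, 372 and 1425 CPM, or 447 on average without replicate 4. Without that library mt-Co2 averaged 211 CPM, mt-Atp8 65.4, mt-Atp6 299.7, mt-Nd3 13.5 and mt-Nd4l 7.84.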

How the data were processed

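Gene expression was measured by RNA sequencing of polyadenylated RNA in 12 libraries, and the 4 wild type ones were used. The deposited table holds raw read counts per gene symbol made by the authors. Per the submitters' processing notes, Trim Galore 0.4.3 and HISAT2 2.0.5 were used with GRCm38. The counting program is not given in the sources used here. Counts carry no strand, so overlapping entries cannot be separated, and no molecular identifiers, so PCR copies are counted.

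Counts were scaled by TMM over the 4 libraries (edgeR 4.0.16, R 4.3.3) and expressed as CPM. Exon lengths came from the GENCODE gene models and were found for 24576 of 25965 entries. Spread was the CV over libraries and the common dispersion of edgeR, whose estimate was tested on simulated data. DESeq2 1.42.0 gave an alternative. Tables were made with pandas 2.3.3 and numpy 2.4.6. There was no comparison between groups. Single libraries were described by the farthest from the mean and by folds of 1.5 and 2 against all others. The 95% critical value of Dixon was also applied to them. The members and the 86 gene lists were chosen with earlier results of these data known. Named genes are the 6 markers, the 20 highest by CPM and per kb, up to 4 leading members of each list and its members without a count where these are 5 or fewer, the 15 highest transcription factors, the 10 highest and 10 lowest in CV, and members that a count of 5 or fewer refers to. Other names were chosen after their values were seen. Some genes that the rule would name are not reported here.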

Additional observations from a re-analysis of the deposited data

Results flagged for a closer look

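For 4 libraries, a value was singled out when its gap to the nearest other library exceeded the 95% critical value of Dixon, as a share of the whole range. Chance alone flags about 1 in 20 sets of values. Of 218 named genes 32 were singled out, and of 86 list sums 6.

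Replicate 1 was the high library for 17 genes. The gap took 0.991 of the range for Ret, 0.977 for Gfra1, 0.961 for Tagln2, 0.953 for Ctla2a, 0.946 for Pde1a, 0.944 for Ecel1, 0.938 for Jun, 0.908 for Kcnk3, 0.903 for Ache, 0.895 for Ldha, 0.882 for Itpr1, 0.880 for Scn9a, 0.876 for Lgals3, 0.870 for Srd5a2, 0.867 for Scg2, 0.866 for Mpp3 and 0.858 for Tm4sf1. It was the low library for 7 genes, with 0.901 for Cox6b1, 0.882 for Mdh1, 0.861 for Stmn3, 0.858 for Kcnc1, 0.855 for Hoxb2, 0.840 for Pvalb and 0.837 for Kcna1. Several of these genes were named because they vary, so their number is a description.

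Replicate 2 was high for Spp1 (0.913) and P2rx5 (0.900) and low for Mcoln1 (0.895) and Zfp637 (0.848). Replicate 3 was high for Gm5506 (0.993) and Hba-a1 (0.862) and low for Psmd4 (0.856), whose whole range is under 3 CPM. Replicate 4 was high for Adra1b (0.900).

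Among list sums, replicate 1 was high for the list of MEF2, SRF and other factors (0.959), the EAG and ERG potassium channels (0.938) and the neurotrophic factor receptors (0.914), and low for the forkhead factors (0.867). Replicate 4 was high for the ion pumps (0.855) and the sex-linked genes (0.831).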

How the results depend on the processing

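Detected entries numbered 12398 to 12411 under the other scalings, 12502 to 12614 with a library left out, 13167 at 0.5 CPM and 9897 at 5 CPM. Transcription factors fell from 620 to 412 at 5 CPM. With a library left out, 139 to 142 channels, 140 to 146 receptors and 630 to 644 transcription factors were detected, the share of the top 10 was 5.82 to 6.10%, the median CV was 13.2 to 16.5% and the biological coefficient of variation was 0.288 to 0.338. With no filter on low counts the median CV was 26.1% and the biological coefficient of variation 0.651, and the median gene-wise dispersion of DESeq2 gave 0.178. The cause of these differences was not tested. With the longest transcript as length, 17 of the 20 highest genes per kb were shared and 60 of 77 lists kept their leading gene. No paired analysis was possible because only 1 group was used. The share of the top 10 was 6.03% without mitochondrially encoded genes in the total, and the other scalings do not alter a share of a library's own counts. A level of 3 counts was 0.0356 to 0.0479 CPM per library, an upper bound for a count of 0 only if counts are independent. Amplified fragments without molecular identifiers are not, so a count of 0 does not show absence.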

Other observations

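The 6 adjacent mitochondrial genes made up 0.229, 23.4, 8.71 and 30.6% of the mitochondrially encoded CPM in replicates 1 to 4.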
